A study of Mus musculus with 20 samples.

Results

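The transcripts described here encode 6 pore subunits of the channels behind burst firing in thalamic neurons. They are the low-threshold (T-type) calcium channel genes Cacna1g, Cacna1h and Cacna1i and the hyperpolarization-activated HCN channel genes Hcn2, Hcn3 and Hcn4. They were taken by name, with Ensembl identifiers matched to mouse symbols, from the 57180 gene identifiers of the deposited count table, and all 6 passed the filter on low counts. The study dissected the paraventricular thalamic nucleus (PVT) and the posterior insular cortex (pIC) of mice as tissue punches, in a model of painful diabetic neuropathy with anxiety-like behavior. STZ mice had received 1 intraperitoneal dose of 200 mg/kg streptozotocin, a toxin that kills the insulin-producing beta cells, and control mice had received vehicle. The 4 groups were PVT of STZ mice (6 libraries), PVT of control mice (4), pIC of STZ mice (6) and pIC of control mice (4), all taken at week 7. Strain, sex, age and blood glucose were not given in the sources used here, nor whether libraries with the same number in both regions came from 1 mouse. Nothing in the labels says that libraries came from separate animals, so p-values measure the spread between libraries, which may be technical.

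T-type calcium channels open at potentials below the threshold of the sodium spike and inactivate quickly, so that a thalamic neuron fires a burst when it is released from hyperpolarization. HCN channels open on hyperpolarization, carry an inward cation current and are made easier to open by cyclic AMP, so that they set the resting potential and pace rhythmic firing. In relay neurons of the thalamus, Cacna1g carries most of the T-type current and Hcn2 and Hcn4 most of the HCN current, while reticular thalamic neurons use Cacna1h and Cacna1i.

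The 20 libraries held 17.9 M to 25.5 M counts. The labelled regions were checked against marker lists, each scored as the mean log2 CPM of its genes, CPM being counts scaled to a common library total. The midline thalamus score was 3.56 to 4.14 in PVT STZ and 3.3 to 3.93 in PVT control libraries, against 1.28 to 2.61 in pIC STZ and 1.39 to 1.9 in pIC control libraries, with no overlap between regions. Not every marker of that list followed the score. In edgeR's test of PVT against pIC, 7 of 10 tested were called higher and 0 lower in STZ mice, and 6 of 9 higher and 2 lower in control mice. The cortical excitatory score was 4.63 to 5.74 in PVT STZ and 3.61 to 5.73 in PVT control libraries, and 6.21 to 7.04 in pIC STZ and 6.68 to 6.91 in pIC control libraries. PVT punches differed in their content. The thalamus relay score was 3.84 to 6.99 in PVT STZ and 4.28 to 5.72 in PVT control libraries, a spread of 8.86-fold and 2.71-fold. Its list had a summed level of 404.5 to 2054.1 CPM in PVT STZ and 429 to 861.7 CPM in PVT control libraries, with none of the 12 markers at 0. PVT control library 4 held 14315.9 CPM of summed pituitary hormone transcripts, against at most 4.53 CPM in PVT STZ libraries. Striatal projection neuron markers were highest in pIC STZ library 3 (8.29), PVT STZ library 1 (8.2) and PVT STZ library 3 (7.82). In PVT the ependyma score was lower in every STZ library (2.67 to 3.17) than in any control library (3.34 to 3.76), and the oligodendrocyte score was likewise lower in every STZ library (7.55 to 8) than in any control library (8.09 to 8.32). In edgeR's test of STZ in PVT, 6 of 8 ependyma markers and 3 of 10 oligodendrocyte markers were called lower and none higher. The choroid plexus score was 4.26 to 5.42 in PVT STZ against 5.29 to 6.24 in PVT control libraries. Hypothalamus markers also varied widely between PVT punches, with a summed level of 12.1 to 941.9 CPM in PVT STZ and 13.9 to 906.8 CPM in PVT control libraries. In these bulk libraries, fewer cells of a type and less RNA per cell cannot be told apart.

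Of the channel genes, 3 differed between the regions in both treatments, and none was called for STZ. Cacna1i was lower, and Hcn3 and Hcn4 were higher, in PVT than in pIC, in STZ and in control mice alike, and Cacna1h was called slightly higher in PVT in control mice. Cacna1h was the member with the smallest p-value for STZ in both regions, about 1.28-fold higher in PVT and 1.27-fold higher in pIC, but it did not pass the adjusted threshold in either. In PVT, Hcn4 and Cacna1g varied most between punches, and both were highest in the punches richest in thalamus relay and habenula transcripts.

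In the test of PVT against pIC, edgeR's quasi-likelihood test with Benjamini-Hochberg adjustment over all genes called 3 of the 6 members in STZ mice, 2 higher and 1 lower, beside a background of 49.1% of 16489 genes called. In control mice it called 4 of the 6, 3 higher and 1 lower, beside 47.8% of 16614 genes. PVT and pIC libraries did not overlap for 2 of the 6 members in STZ mice, against 27.8% of all genes, and for 3 of the 6 in control mice, against 45.4% of all genes. These shares lie near the background of a contrast between regions and are no result about the members as a group. A difference of over 2 fold, tested with edgeR's glmTreat, was called for 0 of the 6 in STZ mice (background 3.60%) and for 0 of the 6 in control mice (background 5.25%), with 1 member at an unadjusted p under 0.05 in each.

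For STZ against control, edgeR's quasi-likelihood test called 0 of the 6 members in PVT, where 2.07% of 17076 genes were called, and 0 of the 6 in pIC, where 1.40% of 16189 genes were called. Of the 6 members, 2 in each region (Cacna1h and Cacna1i) had an unadjusted p under 0.05. Over all genes these were 3034 of 17076 in PVT and 1915 of 16189 in pIC. DESeq2 called 1 member in PVT (Cacna1h) and 0 in pIC, and limma-voom called 0 in both. The STZ and control libraries overlapped for all 6 members in both regions, beside 6.20% of genes without overlap in PVT and 4.28% in pIC. The median log2 fold change of the 6 members was 0.26 in PVT and 0.02 in pIC, against 0 over all genes in both. For pan-neuronal markers it was 0.15 in PVT and -0.05 in pIC, and for oligodendrocyte markers -0.3 and -0.05. Other marker lists had larger medians in PVT, at 0.76 for habenula, 0.64 for striatal and 0.51 for thalamus relay markers. Those of choroid plexus (-0.73) and ependyma markers (-0.72) were negative there. In pIC the medians were 0.07 for habenula, 0.72 for striatal and -0.03 for thalamus relay markers. The part of tissue content in the medians of the members was not tested. The STZ effect in PVT minus that in pIC, tested as an interaction over all 20 libraries, was called by edgeR for 0 of the 6, and none had an unadjusted p under 0.05; the background was 0% of 17427 genes, and DESeq2 and limma-voom also called 0 of the 6. The comparisons of region and of STZ use the same libraries. The interaction log2 values ran between -0.06 for Hcn3 and 0.50 for Hcn4.

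**Figure D1:**
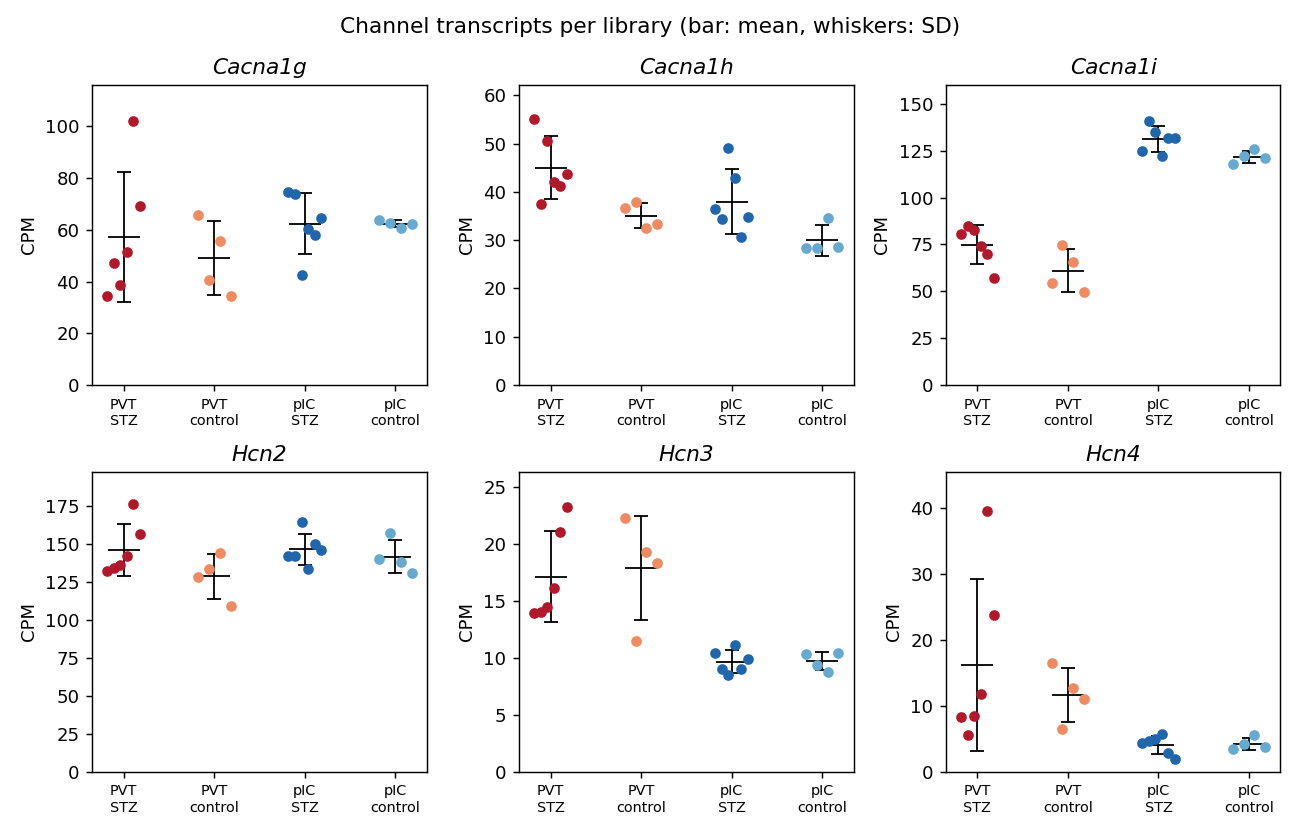
CPM of each channel gene in every library, with the PVT STZ, PVT control, pIC STZ and pIC control groups from left to right. Points are libraries, the bar is the group mean and whiskers are the SD. Cacna1i lies lower and Hcn3 higher in PVT than in pIC without overlap, and Hcn4 spreads between 5.57 and 39.5 CPM in PVT STZ libraries.

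Cacna1g (ENSMUSG00000020866, chromosome 11) encodes the T-type pore that drives bursts of thalamic relay neurons. It was at a lowest of 34.6, a median of 49.3 and a highest of 102.3 CPM in PVT STZ libraries, and at 65.8, 40.8, 55.8 and 34.3 CPM in the PVT control libraries. In pIC it was at 42.5, 62.5 and 74.6 CPM (lowest, median, highest) in STZ libraries and at 63.9, 62.6, 60.8 and 62.4 CPM in control libraries. The 4 pIC control libraries were close to each other, while the PVT libraries of either group spread widely and the groups overlapped in every comparison. The log2 fold change of STZ against control was 0.22 in PVT (SE 0.316, 95% interval -0.49 to 0.92, edgeR adjusted p = 0.772) and 0 in pIC (SE 0.127, interval -0.28 to 0.27, adjusted p = 0.995). The PVT value rested on PVT STZ library 5, without which it was -0.03. For PVT against pIC the log2 value was -0.12 in STZ mice (interval -0.67 to 0.42, edgeR adjusted p = 0.717) and -0.34 in control mice (interval -0.75 to 0.07, adjusted p = 0.155). Without PVT control library 1 the control value was -0.52 and was called (edgeR adjusted p = 0.0182), and without the 4 PVT libraries lowest in thalamus transcripts (STZ 1 and 2, control 2 and 4), which are also among the 5 lowest in Cacna1g, it was -0.04.

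Among the PVT libraries the 5 highest in Cacna1g were STZ 5, STZ 6, control 1, control 3 and STZ 4. These were also the 5 highest in the thalamus relay score, in that order, at 6.99, 6.46, 5.72, 5.69 and 5.54. The same 5 libraries were the 5 highest in the habenula score. Over the 10 PVT libraries Pearson's r of log2 Cacna1g was 0.90 with the relay and 0.89 with the habenula score. It was 0.88 with the astrocyte, 0.82 with the endothelium, 0.78 with the hypothalamus, -0.61 with the GABA neuron and -0.86 with the striatal score. Relay tissue content was tested only by a fit with the relay score as a covariate, in which the STZ log2 value was 0.1 (edgeR adjusted p = 0.7). The part of habenula, astrocyte and hypothalamus content was not tested.

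Cacna1h (ENSMUSG00000024112, chromosome 17) encodes the T-type pore that is also known for setting excitability in sensory neurons of pain pathways. It was at a lowest of 37.5, a median of 42.9 and a highest of 55.1 CPM in PVT STZ libraries, and at 36.6, 38.0, 32.5 and 33.3 CPM in PVT control libraries. In PVT, 5 of the 6 STZ libraries lay above every control library, and STZ library 2, at 37.5 CPM, lay below control library 2. In pIC it was at 30.6, 35.6 and 49.0 CPM (lowest, median, highest) in STZ libraries and at 28.4, 28.3, 34.7 and 28.5 CPM in control libraries. There all STZ libraries lay above 3 of the control libraries, and control library 3 lay among the STZ libraries.

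The log2 fold change of Cacna1h for STZ against control was 0.36 in PVT (SE 0.104, 95% interval 0.13 to 0.59, unadjusted p = 0.0053, edgeR adjusted p = 0.109). In pIC it was 0.34 (SE 0.124, interval 0.07 to 0.61, unadjusted p = 0.0166, edgeR adjusted p = 0.275). The interaction was 0.00 (95% interval -0.35 to 0.35, edgeR adjusted p = 1), so no difference between the regions was detected and one of up to 0.35 on the log2 scale lies within the interval. DESeq2 called the gene in PVT (0.37, adjusted p = 0.0352), where it called 5.30% of all genes. Leaving out each library in turn kept the value between 0.29 and 0.41 in PVT and between 0.25 and 0.42 in pIC, and the gene was not called in any of these fits.

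Several marker lists moved with Cacna1h. In PVT the pair highest in Cacna1h, STZ 1 and STZ 3, had the highest striatal scores, 8.2 and 7.82, and in pIC STZ library 3, the highest at 49.0 CPM, had the highest striatal score there. The PVT libraries next in Cacna1h, STZ 6, 4 and 5, did not follow the striatal score, and STZ 5 had the lowest of all, 4.41. The striatal score was 4.41 to 8.2 in PVT STZ and 4.83 to 7.03 in PVT control libraries, and 4.83 to 8.29 in pIC STZ and 5.04 to 6.93 in pIC control libraries; none of the 9 markers was at 0. Over the 10 PVT libraries Pearson's r of log2 Cacna1h was 0.57 with the striatal score, -0.68 with the oligodendrocyte score and -0.59 with the ependyma score. Over the 10 pIC libraries it was 0.73 with the striatal score, -0.82 with the cortical excitatory score, -0.78 with the pan-neuronal score and 0.81 with the midline thalamus score. There it was also 0.76 with the ependyma, 0.74 with the reticular thalamus, 0.73 with the thalamus relay and 0.69 with the choroid plexus score. These r values are descriptions over libraries that share a dissection. The oligodendrocyte and ependyma scores do not overlap between PVT STZ and PVT control libraries, and their part in the PVT value was not tested. With the striatal score as a covariate the log2 value was 0.31 in PVT (edgeR adjusted p = 0.0605), in a fit chosen after seeing the data. In pIC it was 0.27 with that score (edgeR adjusted p = 0.0788). With a cortical excitatory neuron score as covariate, the pIC value was 0.25 and was called (edgeR adjusted p = 0.0446, where 2.65% of genes were called), and with the pan-neuronal score it was 0.26 (edgeR adjusted p = 0.0952). With the choroid plexus score as covariate, the PVT value was 0.53 (edgeR adjusted p = 0.145).

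For PVT against pIC the log2 difference of Cacna1h was 0.24 in STZ mice (95% interval -0.01 to 0.50, edgeR adjusted p = 0.102) and 0.24 in control mice (interval 0.04 to 0.43, adjusted p = 0.0452). The control call was lost in 13 of 17 alternative fits, with an adjusted p between 0.0113 and 0.163 over all of them, including fits without any 1 of PVT control libraries 1 to 4 (0.17 to 0.25) or of pIC control libraries 1, 2 and 4 (0.21 each). In STZ mice the gene was called without pIC STZ library 3 (0.33, edgeR adjusted p = 0.0188, beside 49.7% of all genes).

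**Figure D2:**
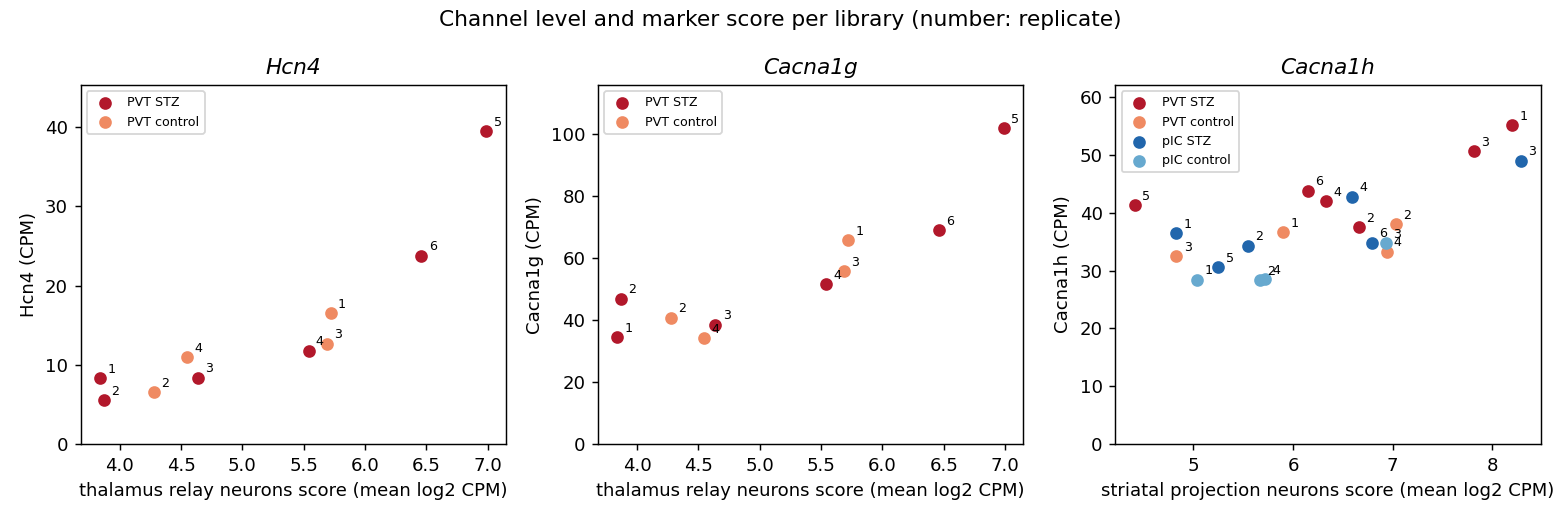
Level of Hcn4 and Cacna1g in the PVT libraries against the thalamus relay score, and of Cacna1h in all libraries against the striatal projection neuron score (mean log2 CPM), with each point numbered by replicate. PVT STZ libraries 5 and 6 are highest in Hcn4 (39.5 and 23.8 CPM) and in relay score, and the libraries highest in Cacna1h (PVT STZ 1 and 3, pIC STZ 3) are highest in striatal score.

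Cacna1i (ENSMUSG00000022416, chromosome 15) encodes the T-type pore with the slowest kinetics, known from cortex and reticular thalamus. It was at a lowest of 56.9, a median of 77.5 and a highest of 84.7 CPM in PVT STZ libraries, and at 54.3, 74.5, 65.8 and 49.4 CPM in PVT control libraries. The pIC levels were 122.5, 131.9 and 141.1 CPM (lowest, median, highest) in STZ libraries and at 118, 122, 126 and 121 CPM in control libraries. Every PVT library lay below every pIC library, and STZ and control libraries overlapped within each region. Within PVT it was highest in STZ libraries 2, 3 and 1, all among the 5 lowest in relay score, and lowest in control library 4, the one with pituitary transcripts. Over the 10 PVT libraries Pearson's r of log2 Cacna1i was -0.43 with the relay score. It was 0.83 with the pan-neuronal, 0.80 with the GABA neuron, 0.69 with the cortical excitatory and -0.73 with the ependyma score. The log2 difference of PVT against pIC was -0.81 in STZ mice (SE 0.0827, 95% interval -0.99 to -0.63, 0.57-fold, edgeR adjusted p = 8.1e-06) and -0.99 in control mice (SE 0.113, interval -1.24 to -0.74, 0.504-fold, edgeR adjusted p = 6.3e-05). It was called in all 21 and all 17 alternative fits, and without the 4 PVT libraries lowest in thalamus transcripts it was -0.90 in STZ and -1.02 in control mice. The pan-neuronal score was lower in PVT too, at 9.07 to 9.26 in PVT STZ and 8.76 to 9.18 in PVT control libraries, and 9.47 to 9.71 in pIC STZ and 9.64 to 9.68 in pIC control libraries; its part in the Cacna1i difference was not tested. The log2 fold change of STZ against control was 0.30 in PVT (interval 0 to 0.59, unadjusted p = 0.0477, edgeR adjusted p = 0.275) and 0.11 in pIC (interval 0 to 0.22, unadjusted p = 0.0497, edgeR adjusted p = 0.421). Without PVT control library 4 the PVT value was 0.21 (edgeR adjusted p = 0.59). Across all alternative fits the PVT value ran between 0.13 and 0.42 and was never called. Its adjusted p was highest with the choroid plexus score as covariate (edgeR adjusted p = 0.756).

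No stretch as long as a read was shared by the coding sequences of 2 members of the same family. Untranslated sequences were not searched. The longest run of bases shared was 68 bases among the T-type genes and 33 bases among the HCN genes, shorter than the 150-base reads. The longest run of each family is shown, and a 150-base read over it also holds bases outside it. All letters are identical between the genes named.
Cacna1g and Cacna1i: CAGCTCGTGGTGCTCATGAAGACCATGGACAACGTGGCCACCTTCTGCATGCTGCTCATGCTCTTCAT
Hcn2 and Hcn3: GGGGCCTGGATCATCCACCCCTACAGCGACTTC

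Hcn2 (ENSMUSG00000020331, chromosome 10) encodes the main HCN pore of thalamic relay neurons and of much of the forebrain. It was at a lowest of 132.2, a median of 139.1 and a highest of 175.9 CPM in PVT STZ libraries, and at 128, 133, 144 and 109 CPM in PVT control libraries. Levels in pIC were 133.4, 144.2 and 164.2 CPM (lowest, median, highest) in STZ libraries and at 140, 157, 138 and 131 CPM in control libraries. All 4 groups overlapped. PVT STZ library 5 was highest and PVT control library 4 lowest. The log2 difference of PVT against pIC was 0 in STZ mice (SE 0.0755, 95% interval -0.16 to 0.16, edgeR adjusted p = 0.983) and -0.13 in control mice (SE 0.0918, interval -0.34 to 0.07, adjusted p = 0.254). For STZ against control it was 0.18 in PVT (interval -0.03 to 0.40, edgeR adjusted p = 0.363) and 0.05 in pIC (interval -0.09 to 0.19, adjusted p = 0.851).

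Hcn3 (ENSMUSG00000028051, chromosome 3) encodes the HCN pore that responds least to cyclic AMP. It was at a lowest of 13.9, a median of 15.3 and a highest of 23.2 CPM in PVT STZ libraries, and at 22.3, 11.5, 19.3 and 18.3 CPM in PVT control libraries. Its pIC levels were 8.45, 9.45 and 11.1 CPM (lowest, median, highest) in STZ libraries and at 10.3, 9.41, 8.78 and 10.4 CPM in control libraries. Each PVT library lay above every pIC library, the closest being PVT control library 2. The log2 difference of PVT against pIC was 0.83 in STZ mice (SE 0.137, 95% interval 0.53 to 1.13, 1.78-fold, edgeR adjusted p = 2.7e-04) and 0.89 in control mice (SE 0.177, interval 0.49 to 1.28, 1.85-fold, edgeR adjusted p = 0.00223). Across the alternative fits it ran between 0.71 and 0.95 in STZ and between 0.75 and 1.09 in control mice and was called in each. Over the 10 PVT libraries Pearson's r of log2 Hcn3 was 0.82 with the relay, 0.85 with the habenula and 0.85 with the hypothalamus score. It was 0.73 with the midline thalamus, -0.66 with the striatal and -0.83 with the GABA neuron score. The part of such tissue content in the difference of Hcn3 between regions was not tested. For STZ against control the log2 value was -0.06 in PVT (interval -0.52 to 0.39, edgeR adjusted p = 0.906) and -0.01 in pIC (interval -0.22 to 0.19, adjusted p = 0.977).

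Hcn4 (ENSMUSG00000032338, chromosome 9) encodes the slow, strongly cyclic AMP-dependent HCN pore, the pacemaker channel of the heart and a channel of thalamic relay neurons. It was at a lowest of 5.57, a median of 10.1 and a highest of 39.5 CPM in PVT STZ libraries, and at 16.5, 6.55, 12.7 and 11 CPM in PVT control libraries. In pIC it was at 1.93, 4.51 and 5.66 CPM (lowest, median, highest) in STZ libraries and at 3.50, 4.15, 5.54 and 3.70 CPM in control libraries. The highest PVT STZ library was 7.1 times the lowest, against 2.53 times among PVT control libraries. In STZ mice PVT library 2 lay just below the highest pIC library, while in control mice every PVT library lay above every pIC library.

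The log2 difference of Hcn4 between PVT and pIC was 1.99 in STZ mice (SE 0.484, 95% interval 0.93 to 3.04, 3.97-fold, edgeR adjusted p = 0.00484) and 1.48 in control mice (SE 0.27, interval 0.87 to 2.08, 2.78-fold, edgeR adjusted p = 0.00167). A difference of over 2 fold was not called by glmTreat (edgeR adjusted p = 0.191 in STZ and 0.202 in control mice). The 4 PVT libraries lowest in thalamus transcripts are also among the 5 PVT libraries lowest in Hcn4, so leaving them out raises the PVT level by construction. The log2 values without them were 2.34 in STZ and 1.78 in control mice, and the over 2 fold call then made (edgeR adjusted p = 0.0423 and 0.00342, beside 4.58% and 6.55% of all genes) is no support for a larger difference. In control mice the call was also made without PVT control library 2, the control library lowest in Hcn4 (1.65, edgeR adjusted p = 0.0103, beside 7.20% of genes). Those 4 libraries include the pair of PVT STZ libraries lowest in relay score, 3.84 and 3.87.

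For STZ against control the log2 value of Hcn4 was 0.47 in PVT (SE 0.547, 95% interval -0.75 to 1.69, edgeR adjusted p = 0.705) and -0.04 in pIC (SE 0.252, interval -0.59 to 0.51, edgeR adjusted p = 0.971). Without PVT STZ library 5 the PVT value was -0.01. The 5 PVT libraries highest in Hcn4, in order STZ 5, STZ 6, control 1, control 3 and STZ 4, were those highest in relay score, in the same order. They were also the 5 highest in habenula markers, with scores of 4.51, 3.79, 3.11, 3.25 and 3.10, against at most 1.92 in the other PVT libraries. Hypothalamus markers were highest in the same pair of libraries, STZ 5 (4.24) and STZ 6 (4.11), and scored -0.84 to 2.36 in the other PVT libraries. The part of habenula and hypothalamus content in the Hcn4 level was not tested. With the relay score as a covariate the PVT value was 0.08 (SE 0.181, edgeR adjusted p = 0.82). At 35 to 122 counts per library in pIC STZ and 78 to 113 in pIC control libraries, Hcn4 was the most thinly counted of the members.

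**Figure D3:**
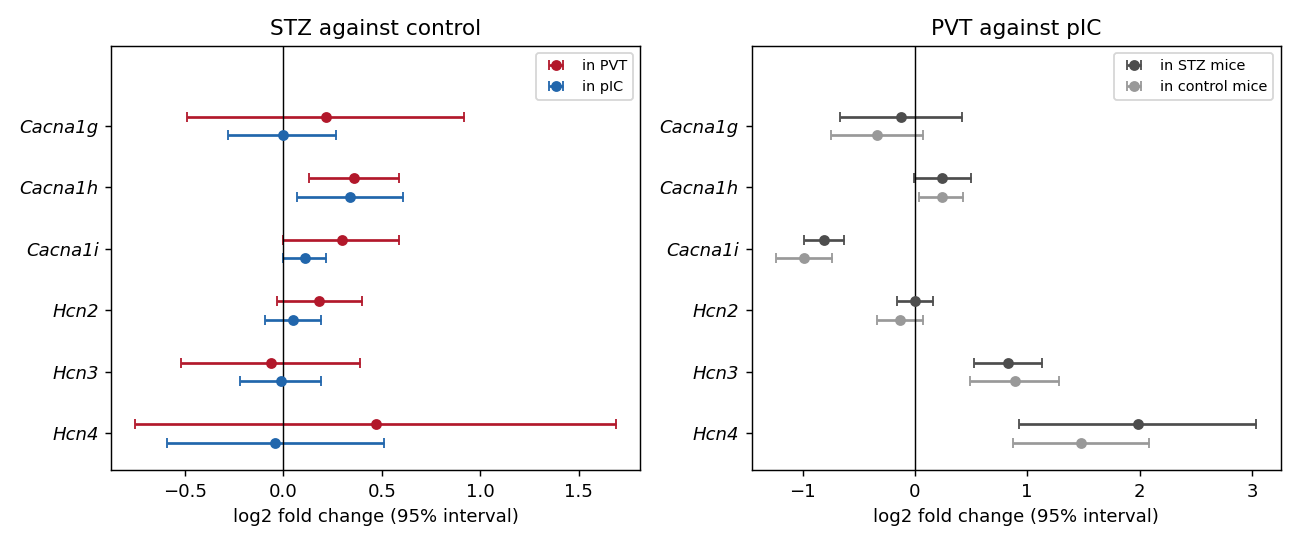
Log2 fold change of each channel gene with its 95% interval, for STZ against control in PVT and in pIC (left) and for PVT against pIC in STZ and in control mice (right). The PVT interval of Hcn4 for STZ spans -0.75 to 1.69, and the region intervals of Cacna1i, Hcn3 and Hcn4 lie clear of 0.

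The 250 bases before the start site were read for the members with a RefSeq promoter entry, which were 3 of the 6, on build GRCm38.p6 and all on the plus strand. All 3 with an entry are shown. Between regions they took different courses, with Cacna1i lower in PVT, Hcn2 at a like level and Hcn4 higher. A link between promoter content and these courses was not tested. Capitals mark the GC box GGGCGG and the core CTTTGA of TCF and LEF factors, each searched on both strands, with no overlap between the motifs.
Cacna1i promoter, chr15:80286988-80287237: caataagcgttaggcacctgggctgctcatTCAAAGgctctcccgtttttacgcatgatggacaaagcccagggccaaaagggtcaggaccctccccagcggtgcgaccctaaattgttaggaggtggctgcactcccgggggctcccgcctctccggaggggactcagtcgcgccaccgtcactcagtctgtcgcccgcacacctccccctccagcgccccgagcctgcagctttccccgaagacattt
Hcn2 promoter, chr10:79716384-79716633: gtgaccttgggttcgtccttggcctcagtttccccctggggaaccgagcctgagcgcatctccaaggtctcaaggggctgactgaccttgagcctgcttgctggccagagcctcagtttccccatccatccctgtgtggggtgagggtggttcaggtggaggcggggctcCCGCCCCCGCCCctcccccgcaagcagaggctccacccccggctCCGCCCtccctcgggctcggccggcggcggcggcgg
Hcn4 promoter, chr9:58822699-58822948: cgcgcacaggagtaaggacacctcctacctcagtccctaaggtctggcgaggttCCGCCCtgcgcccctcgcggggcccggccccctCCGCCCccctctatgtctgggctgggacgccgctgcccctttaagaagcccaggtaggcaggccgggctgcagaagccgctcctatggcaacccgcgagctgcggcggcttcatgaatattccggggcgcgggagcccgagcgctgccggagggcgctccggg

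The Hcn4 window held 25 CG dinucleotides, more than 89.7% of the 27025 promoters of the same length, and the other two held 16 each, against a median of 6. Its GC content was 71.2%, that of Hcn2 70.4% and that of Cacna1i 62.4%, against a median of 52.0%. GC boxes occurred 2 times in Hcn4, 3 times in Hcn2 and 0 times in Cacna1i, and in 32.9% of all promoters. The TCF and LEF core occurred 1 time in Cacna1i and in 14% of all promoters. A match is a description of these letters and not of binding.

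Levels of different genes were compared per kilobase of exon, as CPM per kb. Hcn2 was the highest member in every group, at 45.7 ± 5.31 in PVT STZ and 40.2 ± 4.45 in PVT control libraries, and 45.8 ± 3.25 in pIC STZ and 44.4 ± 3.44 in pIC control libraries (mean ± SD, n = 6 STZ and 4 control). Next came Cacna1i, at 7.66 ± 1.06 in PVT STZ and 6.24 ± 1.15 in PVT control libraries, and 13.4 ± 0.689 in pIC STZ and 12.4 ± 0.342 in pIC control libraries. Cacna1g followed at 6.73 ± 2.96 in PVT STZ and 5.78 ± 1.68 in PVT control libraries, and 7.33 ± 1.39 in pIC STZ and 7.34 ± 0.149 in pIC control libraries. Among Cacna1i, Cacna1g, Cacna1h and Hcn3, the library ranges of neighbours overlapped in PVT, so neighbours could not be ordered by their ranges. Read within each library, Cacna1i lay above Cacna1h in every PVT library, the closest being STZ library 6 (5.82 against 5.32). In PVT control libraries their ranges were apart, at 5.05 to 7.61 for Cacna1i and 3.95 to 4.61 for Cacna1h. In pIC each member was set apart from its neighbours, except Cacna1g and Cacna1h in STZ mice, whose ranges overlapped. Hcn4 had the lowest mean in every group, at 2.65 ± 2.14 in PVT STZ and 1.91 ± 0.676 in PVT control libraries, and 0.668 ± 0.228 in pIC STZ and 0.69 ± 0.151 in pIC control libraries, although its PVT STZ range, 0.91 to 6.46, overlapped those of Hcn3 and of all 3 T-type genes.

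As a share of the 3 T-type genes, per kb, Cacna1i made up 29.6% to 46.2% in PVT STZ and 31.3% to 44.7% in PVT control libraries, and 49.2% to 56.1% in pIC STZ and 52.4% to 53.5% in pIC control libraries. The regions did not overlap in this share. The share of Cacna1g had a median of 30.9% in PVT STZ and 34.4% in PVT control libraries, and 29.4% in pIC STZ and 31.7% in pIC control libraries. That of Cacna1h had a median of 27.4% in PVT STZ and 26% in PVT control libraries, and 16.8% in pIC STZ and 15% in pIC control libraries. Of the 3 HCN genes analysed here, Hcn2 made up 82.5% to 90.5% in PVT STZ and 82.9% to 91.3% in PVT control libraries, and 91.9% to 94.6% in pIC STZ and 92.8% to 94.2% in pIC control libraries, again without overlap between regions. The highest Hcn4 share, 9.68%, was in PVT STZ library 5. Shares were not tested, and other HCN subunits were not analysed here.

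**Figure D4:**
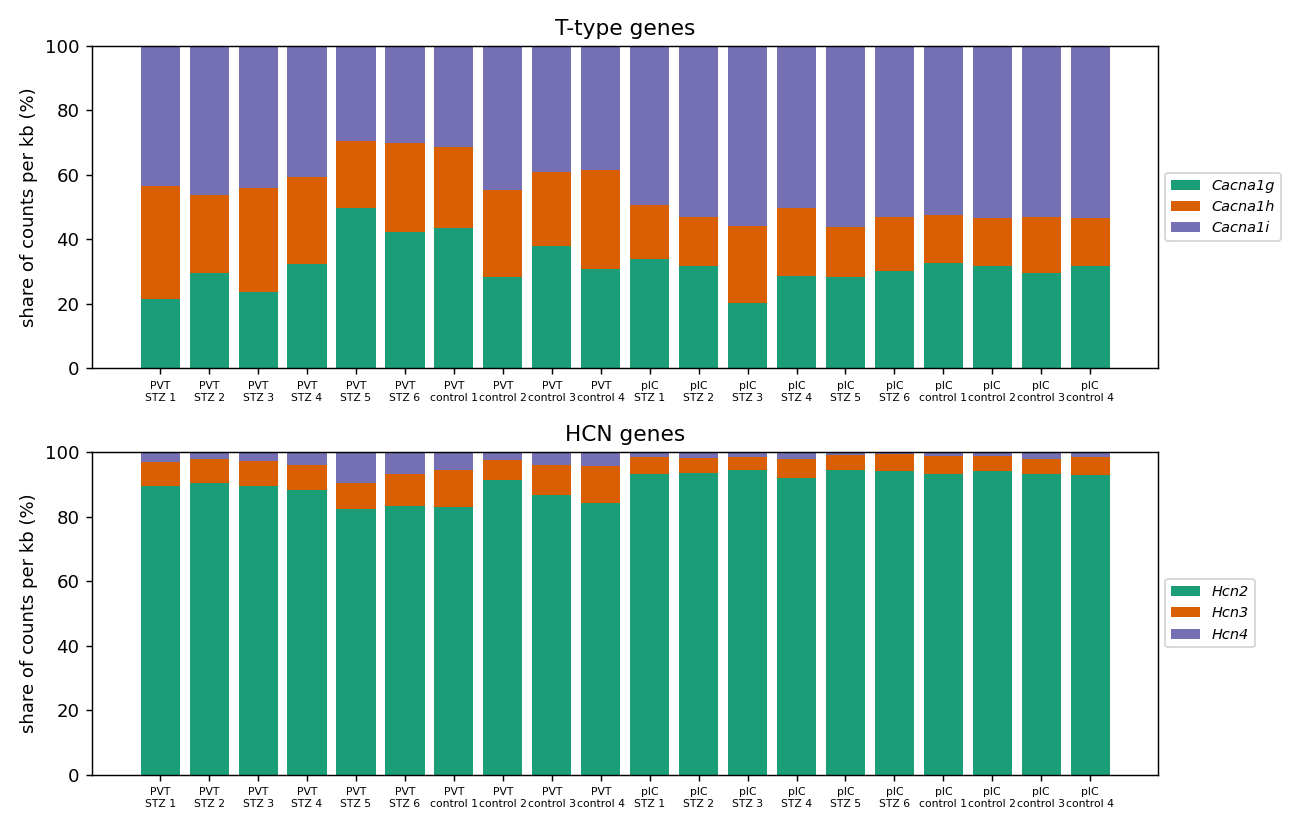
Share of each gene in the summed counts per kb of its family, in every library, for the 3 T-type genes (top) and the 3 HCN genes (bottom), with libraries from PVT STZ on the left to pIC control on the right. Cacna1i takes at most 46.2% in PVT and at least 49.2% in pIC, and Hcn2 takes at least 82.5% everywhere.

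Genes that act with these channels were described from 4 lists, covering partners of T-type channels, partners of HCN channels and the cyclic AMP pathway, other currents of tonic and burst firing, and receptors that shift thalamic neurons between firing modes. For STZ, edgeR called 0 of 12, 0 of 15, 0 of 23 and 0 of 14 tested members of these lists in PVT, with 1, 2, 4 and 4 at an unadjusted p under 0.05. Over all genes tested in PVT, 2.07% were called and 3034 of 17076 had an unadjusted p under 0.05. In pIC it called 0 of 12, 0 of 14, 0 of 23 and 0 of 14, with 0, 1, 3 and 2 at an unadjusted p under 0.05. Over all genes tested in pIC, 1.40% were called and 1915 of 16189 had an unadjusted p under 0.05. The median log2 fold changes in PVT were 0.16, 0.25, 0.19 and 0.19, and in pIC 0.02, 0.06, 0.03 and -0.02. Pan-neuronal markers had medians of 0.15 in PVT and -0.05 in pIC, and medians of other marker lists are given above. The part of neuronal or other tissue content in the list medians was not tested.

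Those with the smallest p in PVT were led by Kcnk1, a leak potassium channel, at 106 ± 4.3 CPM in STZ and 87 ± 10.7 CPM in control libraries (log2 value 0.29, edgeR adjusted p = 0.08). Kcne2, an accessory potassium channel subunit that can assemble with HCN channels and that the choroid plexus expresses strongly, was at 12.2 ± 4.27 CPM in STZ and 23.7 ± 3.23 CPM in control libraries (log2 value -0.95, edgeR adjusted p = 0.0872). Kcne2 is itself a gene of the choroid plexus list, so it moves with that score in part by construction. The ependyma score given above was lower in PVT STZ libraries too. The part of choroid plexus and ependyma content in the Kcne2 value was not tested. Gabra4, a GABA-A receptor subunit of relay neurons, was at 141 ± 26 CPM in STZ and 94.8 ± 14.6 CPM in control libraries (0.57, edgeR adjusted p = 0.0872). The A-type potassium channel Kcnd3 (0.32, edgeR adjusted p = 0.0976), the histamine receptor Hrh2 (0.51, edgeR adjusted p = 0.115), the endoplasmic reticulum calcium pump Atp2a2 (0.25, edgeR adjusted p = 0.193), the cyclic AMP phosphodiesterase Pde4d (0.31, edgeR adjusted p = 0.233) and the ubiquitin ligase Wwp1 (0.14, edgeR adjusted p = 0.413) were named by the same rule. In pIC the named genes were Kcnk1 (0.18, edgeR adjusted p = 0.158), Unc79 (0.17, 0.361), Pde4b (0.19, 0.288), Kctd3 (0.1, 0.498), Cachd1 (0.20, 0.636), Plcb4 (0.10, 0.738), Adrb1 (-0.28, 0.288) and Hrh1 (-0.26, 0.347), each with its log2 value and edgeR adjusted p.

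Between regions most of the changes in these lists were lower in PVT, as were the pan-neuronal markers. Of those, edgeR called 6 of 8 lower and 0 higher in STZ and in control mice (median log2 difference -0.36 and -0.49), while 10 of 10 oligodendrocyte markers were called higher in both (median 0.94 and 1.19). The part of neuronal content in the list counts was not tested. Of the T-type partners edgeR called 2 of 12 higher and 7 lower in PVT of STZ mice, and 3 higher and 7 lower in control mice. Of the HCN and cyclic AMP partners it called 3 of 15 higher and 7 lower in STZ mice, and 1 higher and 7 lower in control mice. For other currents these counts were 6 higher and 7 lower of 23 in STZ mice, and 4 higher and 10 lower in control mice. For receptors they were 4 higher and 6 lower of 14 in STZ mice, and 4 higher and 9 lower in control mice. Over all genes, 26.0% were called higher and 23.1% lower in STZ mice, and 25.5% higher and 22.4% lower in control mice.

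Cachd1, a membrane protein known to raise T-type current, had a log2 difference of 1.72 in STZ mice (edgeR adjusted p = 2.6e-05) and 2.03 in control mice (adjusted p = 2.0e-06). It was at 30 ± 8.7 CPM in PVT STZ and 32.3 ± 6.28 CPM in PVT control libraries, and 9.11 ± 1.92 CPM in pIC STZ and 7.93 ± 0.655 CPM in pIC control libraries. Klhl1, an actin-binding protein that also raises T-type current, had log2 differences of 1.34 and 1.65, and the plasma membrane calcium pump Atp2b2 had -0.95 and -1.19, in STZ and control mice. The calcium-activated chloride channel Ano2 was at 11.2 ± 7.09 CPM in PVT STZ and 13.4 ± 5.17 CPM in PVT control libraries, and 1.8 ± 2.31 CPM in pIC STZ and 0.892 ± 0.241 CPM in pIC control libraries. The inwardly rectifying potassium channel Kcnj6 had -1 and -1.15, the calcium-activated potassium channel Kcnn3 had 1.11 in STZ mice and Kcnj9, a partner of Kcnj6, had -1.31 in control mice. Among receptors, the serotonin receptor Htr7 had 1.2 and 1.37, the muscarinic receptor Chrm1 had -1.15 and -1.41 and the beta-adrenergic receptor Adrb1 had -0.92 and -1.40. The adenylyl cyclase Adcy9 had -0.94 and -1.16, Adcy2 had -0.84 in control mice and Irag1, a protein bound to inositol trisphosphate receptors, had 1.61 in STZ mice. All of these passed edgeR's adjusted threshold. Kcne2 was nearly undetected in pIC, at 0.117 ± 0.208 CPM in STZ and 0.0585 ± 0.0455 CPM in control libraries, so no fold is given.

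The genes whose level was most like that of each member across the 10 PVT libraries were ranked by Pearson's r of log2 CPM among 11464 genes. The libraries share their dissection, so the values are descriptions and carry no test. For Cacna1g they were Kpna2 (r = 0.984), B4galt5 (0.983) and Rsrc1 (0.979). For Cacna1h they were Tcaf1 (r = 0.96), Fat3 (0.96) and Kcna4 (0.946), and for Cacna1i the potassium channel subunit Kcnf1 (r = 0.975) and the adhesion receptor Adgrl1 (0.968). For Hcn2 they were Mark4 (r = 0.981), the potassium channel Kcnc1 (0.97) and Atpaf1 (0.967). For Hcn3 they were Gprasp2 (r = 0.973), Gprin2 (0.971) and Htr7 (0.967), and for Hcn4 Arhgap24 (r = 0.992), Patj (0.989) and Amotl1 (0.987).

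Across the 10 pIC libraries, among 11064 genes, the most like were other genes. They were Sorl1, Fam81a and Stk3 for Cacna1g (r = 0.965, 0.961 and 0.946), Mef2a, Smarcad1 and Nus1 for Cacna1h (r = 0.969, 0.968 and 0.962), and Ubqln1, Cep83 and Eif2s2 for Cacna1i (r = 0.934, 0.877 and 0.864). For Hcn2 they were Tmem59, Srm and Ckb (r = 0.929, 0.899 and 0.896), for Hcn3 Znrf2, Hpcal4 and Smyd4 (r = 0.892, 0.88 and 0.873), and for Hcn4 Rfx3, Ndst4 and Gja1 (r = 0.935, 0.912 and 0.904).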

How the data were processed

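Poly(A)-selected, stranded libraries were read as pairs of 150 bases, per the labels. The deposited table holds raw counts for 57180 identifiers in 20 libraries, and 24926 had no count; 51884 were matched to symbols. The submitters' processing notes name the build GRCm39 (mm39); the aligner, counting program, strand setting and annotation release were not given in the sources used here. Exon lengths and coding sequences came from GENCODE of another build and promoters from RefSeq, so no gene positions are given beyond those of the promoters. No 2 libraries of a group were duplicates (lowest chi-square per degree of freedom 4). Intervals cover the spread between libraries.

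Members, lists and tests were chosen with earlier results of these data known. Each comparison had its own robust quasi-likelihood fit (edgeR 4.0.16, R 4.3.3; TMM; low counts removed by filterByExpr at a count of 10 and a total of 15), called at a Benjamini-Hochberg adjusted p under 0.05; glmTreat used a minimum fold of 2. CPM were TMM-scaled over all libraries. Alternatives used DESeq2 1.42.0, limma 3.58.1 (voom), other scalings and filters, libraries left out, the label number as a block and marker scores as covariates. Scripts were tested on simulated data. Named were all members, per list the 2 genes of smallest p where none passed for STZ, and the 3 largest called region differences. Genes ranked for likeness averaged 5 CPM or more and had an established symbol; log2 CPM used a prior count of 2. A gene that this rule names is not reported here.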

Additional observations from a re-analysis of the deposited data

Results flagged for a closer look

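Of 24 combinations of a channel gene and a group, 1 had a library set far apart from the others of its group. Cacna1h was at 34.7 CPM in pIC control library 3, while the other three pIC control libraries held 28.3 to 28.5 CPM. Chance gives about 1 such case in 20 groups. Without that library the log2 fold change of STZ against control in pIC was 0.42 (edgeR adjusted p = 0.202), and that of PVT against pIC in control mice was 0.31 (edgeR adjusted p = 0.0113).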

How the results depend on the processing

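Cacna1i, Hcn3 and Hcn4 kept their direction and their call between regions under all 21 alternatives in STZ mice and all 17 in control mice. The count of members called for STZ became 1 (Cacna1h) in PVT under DESeq2, and 1 (Cacna1h) in pIC with the label number as a replicate block (0.43, edgeR adjusted p = 0.015, beside 1.48% of all genes) and with the cortical excitatory score as a covariate (0.25, adjusted p = 0.0446); the cause was not tested. The count over 2 fold between regions became 1 (Hcn4) without the 4 PVT libraries lowest in thalamus transcripts, in STZ and in control mice, which follows from leaving out libraries low in Hcn4, and ran between 0 and 1 in control mice when each library was left out. Between regions, same-numbered libraries had correlations of -0.13 to 0.27, with 5 of 10 matching their own number best, and control library 4 had the highest pituitary score in both regions. Within a region, control and STZ libraries of the same number, which cannot share a mouse, had correlations of -0.28 to 0.46. Whether the numbers pair the libraries of both regions is not known. For STZ against control, the block matches control and STZ libraries of the same number, which come from different mice. STZ libraries 5 and 6 have no control of their number, so they add nothing to the STZ value in the block. In the block, Cacna1g (-0.17) and Hcn4 (-0.44) turned direction for STZ in PVT and Hcn4 (0.23) in pIC, uncalled, and the region call of Cacna1h was gained in STZ mice (0.25, adjusted p = 0.0385) and lost in control mice (0.24, adjusted p = 0.0851).

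Other values that turned direction were not called, and include the Hcn4 values for STZ in PVT and for the interaction. Under voom the interaction was -0.10 for Cacna1g and -0.02 for Hcn4. Without the 4 PVT libraries Cacna1g was 0.06 for PVT against pIC in STZ mice. With covariates, Cacna1g was -0.07 in PVT (choroid plexus), and Hcn3 was 0.11 in PVT (pan-neuronal), 0.01 in PVT (striatal, chosen after seeing the data) and 0.01 in pIC (cortical excitatory). When each library was left out in turn, the STZ value in PVT ran between -0.03 and 0.40 for Cacna1g, -0.22 and 0.07 for Hcn3, and -0.01 and 0.69 for Hcn4. In pIC it ran between -0.06 and 0.02 for Hcn3 and -0.15 and 0.12 for Hcn4, and the interaction between -0.03 and 0.38 for Cacna1g and -0.21 and 0.06 for Hcn3. No scaling moved the median of all genes by over 0.1. Of 24 subunit shares, 15 moved by more than 1 SD when counts were not divided by length. Hcn4 in pIC, with as few as 35 counts in a library, is limited most by depth.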
